A study of Mus musculus with 29 samples.

Results

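The choroid plexus genes described here are transthyretin (Ttr), klotho (Kl), folate receptor 1 (Folr1), the homeobox factor Otx2 and autotaxin (Enpp2), named for their high expression in the choroid plexus, the sheet of epithelium in the brain ventricles that makes cerebrospinal fluid. The members were all probe sets of the array that the platform's annotation assigns to one of these 5 symbols. Probe sets were found for 4 of the 5 genes, 7 of the 22626 tested: 3 for Ttr, 2 for Kl and 1 each for Folr1 and Otx2. No probe set carries the symbol Enpp2 in the annotation used here, so Enpp2 was not analysed here. A gene with several probe sets is represented by its brightest one over the 29 arrays, called its main probe set, and the others are described beside it.

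The arrays measured total RNA of the mouse caudate-putamen (CPu), the dorsal striatum, which borders the lateral ventricle, and of the prefrontal cortex (PFC). TgS mice express the human AChE-S variant of acetylcholinesterase, TgR mice express human AChE-R, and FVB/N is their parent strain and shared genetic background. MPTP, a neurotoxin that damages dopamine neurons, was injected 4 times at 20 mg/kg, 2 h apart, for 80 mg/kg in all, and tissue was taken 4 days after injection. The unexposed arrays are labelled naive, and the protocol describes saline injections. In the CPu there were 2 arrays each of TgS MPTP, TgS naive, TgR naive, FVB/N MPTP and FVB/N naive mice, and 1 of TgR MPTP mice, 11 in all. In the PFC there were 2 MPTP and 4 naive arrays in each strain, 18 in all. The sources used here do not give the promoter that drives either transgene, the number of founder lines, the age or sex of the mice, or how many mice went into an array. P-values therefore measure the spread between arrays, which may be technical.

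The dissections carried the markers of their labelled regions. All 8 measured genes of striatal projection neurons were higher in naive CPu than in naive PFC (median log2 difference 2.57), and 7 of 8 genes of cortical pyramidal neurons were lower (median -1.62), while the median over all 22626 probe sets was -0.06. A set of 6 naive PFC arrays, replicates 1 and 2 of each strain, stood apart from the other 23: Xist, transcribed from the inactive X chromosome, was at 8.62 to 10.61 in those 6 arrays and at 6.78 to 7.24 elsewhere, and the Y-linked Eif2s3y was at 3.42 to 3.83 in the 6 and at 8.41 to 9.20 elsewhere. High Xist with low Eif2s3y is the pattern of female tissue, and the reverse that of male tissue, but the labels used here give no sex. With all arrays, comparisons of naive PFC with CPu or MPTP groups set these 6 against arrays of the other pattern. Comparisons of the 4 genes with naive PFC are given with and without the 6 arrays. Those of other probe sets and of the gene lists are in part given only with them. FVB/N naive CPu replicate 2 is naive by its title, source and treatment, but its description names MPTP exposure. It was kept as naive. The members' differences by region, between strains in the naive CPu and after MPTP in the CPu that rest on it are given without it too. The comparisons of MPTP differences between strains or regions, the correlations and the gene lists are given only with it.

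Transthyretin carries thyroid hormone and, bound to retinol-binding protein, vitamin A. Within the brain its mRNA is made mainly by the choroid plexus epithelium, which secretes the protein into cerebrospinal fluid. Klotho is a membrane protein and, once shed, a circulating co-receptor for FGF23. Folate receptor 1 moves folate across the choroid plexus epithelium into cerebrospinal fluid. Otx2 is a transcription factor needed for the development and upkeep of the choroid plexus and is also secreted from it. Autotaxin produces lysophosphatidic acid outside the cell. Kl lies at chr5:150952607-150993817, Folr1 at chr7:101858331-101870788 and Otx2 at chr14:48656781-48667644 in GRCm38.p6.

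Since Otx2 is both a member and a transcription factor, the promoters of the members were searched for TAATCC, the core motif of Otx-type homeodomains, on both strands (TAATCC or GGATTA). RefSeq promoters of GRCm38.p6, from 250 bases before to 50 after each gene's start, were at hand for 2 of the members, Kl (1 promoter) and Otx2 (4 promoters). The motif was present in 2320 of all 32851 promoters (7.06%). It was found in 1 of the 4 Otx2 promoters, at chr14:48665060-48665359 on the minus strand, with its first base 211 bases before the start, and in none of the other Otx2 windows or the Kl window at chr5:150952357-150952656 on the plus strand. The Otx2 promoter with the match and the Kl promoter, which belongs to the member that differed most between strains in log2 terms, are printed 5′ to 3′ on the strand of the gene, with the motif in capitals. The match is a description of the letters and not a binding site.
Otx2: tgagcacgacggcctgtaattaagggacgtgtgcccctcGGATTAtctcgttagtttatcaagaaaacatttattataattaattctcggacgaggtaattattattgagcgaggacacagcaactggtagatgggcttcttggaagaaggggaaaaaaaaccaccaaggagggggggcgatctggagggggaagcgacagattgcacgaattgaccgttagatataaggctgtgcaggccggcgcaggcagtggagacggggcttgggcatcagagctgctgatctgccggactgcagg
Kl: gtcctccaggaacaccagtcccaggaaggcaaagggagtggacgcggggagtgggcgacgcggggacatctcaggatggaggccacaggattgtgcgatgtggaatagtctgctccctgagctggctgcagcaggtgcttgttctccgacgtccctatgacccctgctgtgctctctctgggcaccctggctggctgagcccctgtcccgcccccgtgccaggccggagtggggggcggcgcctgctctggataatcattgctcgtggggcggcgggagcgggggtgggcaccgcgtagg

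All 4 genes were higher in the CPu than in the PFC, and the arrays of the regions did not overlap. Ttr was the brightest, with a log2 signal of 10.72 at the lowest, 13.50 at the median and 13.92 at the highest over the 11 CPu arrays, against 7.66, 8.05 and 9.02 over the 18 PFC arrays. Kl lay at 6.04, 7.42 and 9.0 in the CPu, against 5.01, 5.50 and 6.00 in the PFC. Folr1 lay at 6.68, 7.37 and 8.52 in the CPu, against 6.02, 6.31 and 6.60 in the PFC. Ttr left a wide gap between the regions, while the lowest CPu arrays of Kl and Folr1 were close to the highest PFC arrays. Otx2 lay at 4.81, 5.64 and 6.46 in the CPu, against 4.07, 4.42 and 4.79 in the PFC, the narrowest gap of the 4 genes. Signals of different probe sets are not comparable as levels, and fewer choroid plexus cells in a dissection cannot be told apart from less RNA per cell in these bulk samples.

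In naive mice, averaged over strains, Ttr was higher in the CPu by 5.22 ± 0.32 on the log2 scale (37.2-fold; SE, limma, adjusted p = 9.06e-11), Kl by 2.12 ± 0.27 (4.34-fold, adjusted p = 2.22e-06), Folr1 by 1.34 ± 0.18 (2.53-fold, adjusted p = 4.12e-06) and Otx2 by 1.33 ± 0.10 (2.51-fold, adjusted p = 1.91e-09). These differences come from a model with a term for the array set, so that they rest on naive PFC replicates 1 and 2. All 4 of 4 genes were called higher, where 25.2% of all probe sets were called higher in this comparison. The members were chosen with earlier results of these data known, so the count describes them and is not independent evidence. Without the 6 arrays the differences were 5.04, 2.60, 1.30 and 1.45, again 4 of 4 against 29.4% of all probe sets. Naive PFC is then replicates 3 and 4 alone, which no other group shares an array set with. In that fit the region cannot be told apart from the array set, so neither fit is free of a difference between sets of arrays. Without FVB/N naive CPu replicate 2 they were 5.15, 1.85, 1.15 and 1.25. In MPTP-exposed mice Ttr was higher in the CPu by 4.66 ± 0.35, Kl by 1.44 ± 0.30, Folr1 by 1.00 ± 0.20 and Otx2 by 1.11 ± 0.11 (limma, adjusted p at most 0.000557), 4 of 4 against 23.2% of all probe sets.

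**Figure D1:**
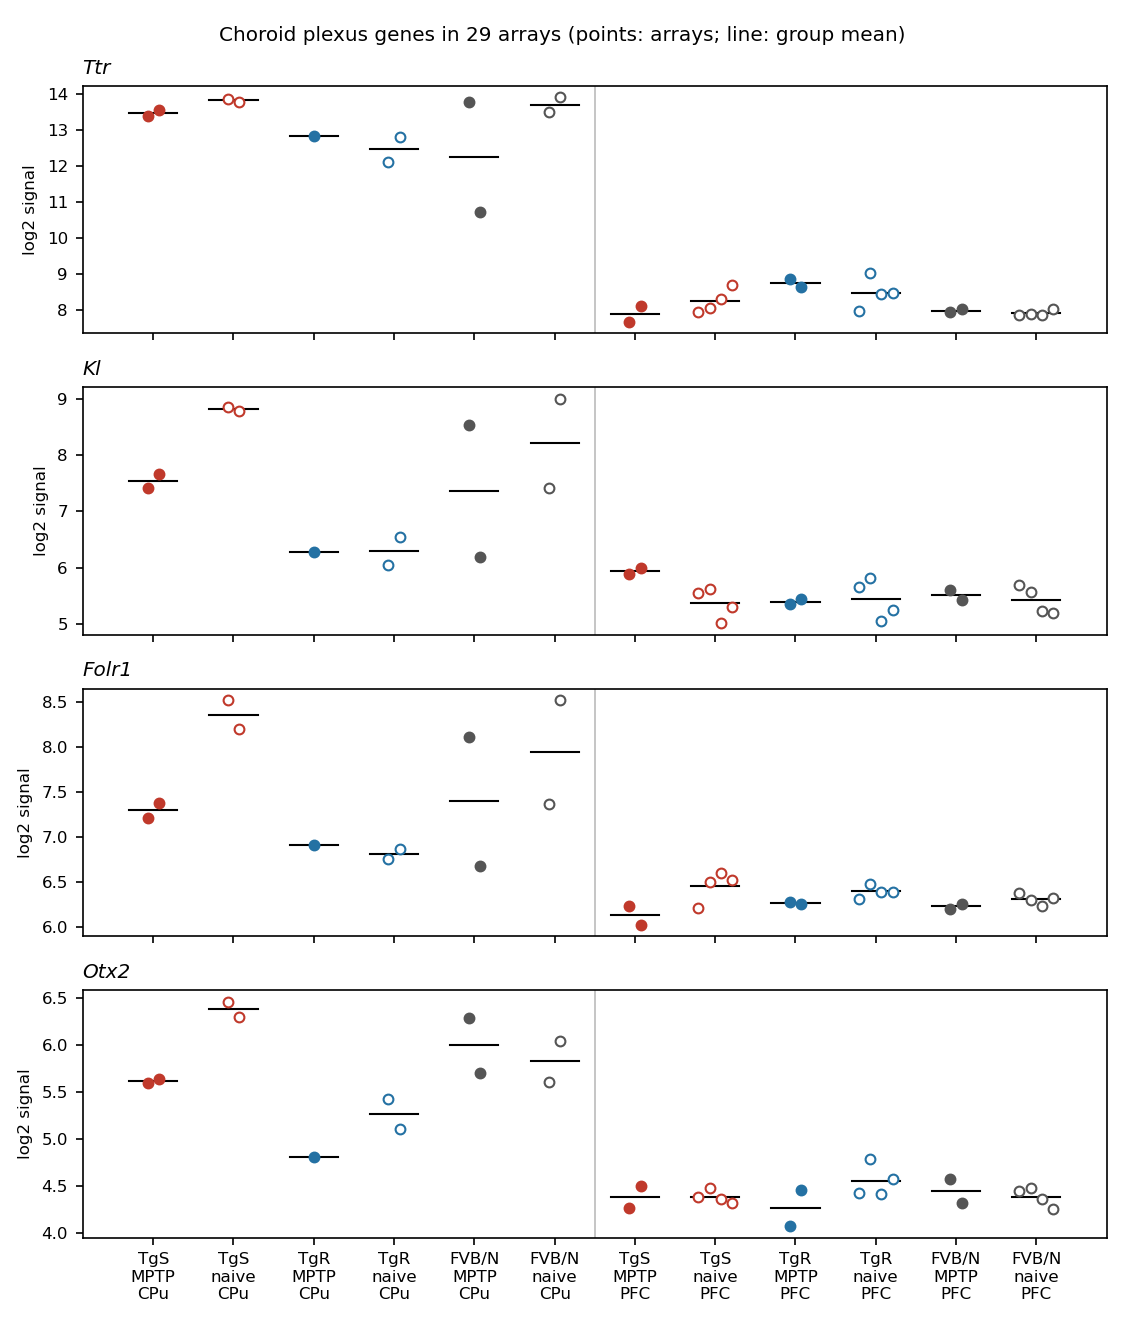
Log2 signal (y axes) of Ttr, Kl, Folr1 and Otx2 in every array, by strain, treatment and region (x axis). Filled points are MPTP-exposed and open points naive arrays, and lines are group means. CPu arrays lie above all PFC arrays for each gene, the TgR CPu arrays lie low, and the 2 FVB/N MPTP CPu arrays lie far apart, at 13.80 and 10.72 for Ttr.

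The regional difference was of unequal size among strains. In naive TgS mice, Ttr was higher in the CPu by 5.67, Kl by 3.21, Folr1 by 1.93 and Otx2 by 1.93 (SE 0.16 to 0.51), and 4 of 4 genes were called against 21.1% of all probe sets. In naive TgR mice, Ttr was higher by 4.08 ± 0.51 and Otx2 by 0.66 ± 0.16, while Kl differed by 0.61 ± 0.43 (limma, adjusted p = 0.264) and Folr1 by 0.44 ± 0.29 (adjusted p = 0.228), without overlap of the regions, so that 2 of 4 were called against 18.2%. In naive FVB/N mice 4 of 4 were called against 14.5%, with Ttr higher by 5.89, Kl by 2.54, Folr1 by 1.66 and Otx2 by 1.38. Without FVB/N naive CPu replicate 2 the FVB/N differences of Kl and Folr1 were 1.75 and 1.09, and both were still called. Without the 6 PFC arrays the counts were 4 of 4 in TgS (21.3% of all probe sets called higher), 2 of 4 in TgR (14.7%) and 4 of 4 in FVB/N (16.9%), and the Kl difference in TgR was 1.14 ± 0.51 (adjusted p = 0.121). The Otx2 difference in TgR mice was not called without TgR naive CPu replicate 1 (0.50, adjusted p = 0.0664).

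The probe sets of 1 gene agreed for Ttr but not for Kl. The second and the third Ttr probe sets were higher in naive CPu by 6.70 ± 0.52 and 6.89 ± 0.53 (5.69 and 5.86 without the 6 arrays), and over the 11 CPu arrays they correlated with the main one at r = 0.988 and 0.996. In the PFC both ranged more widely than the main one, over 4.58 to 9.45 for the second and over 3.98 to 8.24 for the third. The second Kl probe set lay at 5.22 to 5.79 in the CPu and at 5.61 to 6.18 in the PFC. It was lower in naive CPu by 0.47 ± 0.07 (limma, adjusted p = 2.56e-05), the direction opposite to the main one, and differed by -0.16 after MPTP (adjusted p = 0.112). The 2 Kl probe sets correlated at r = 0.05 over the CPu arrays. The main Kl probe set was the brighter one only through the CPu, with medians of 7.42 against 5.59 there. In the PFC its median was 5.495 against 5.845 for the second. The choice of the main Kl probe set thus depends on its CPu signal, and its calls in the CPu are not independent of that choice. When the probe sets of a gene were averaged, Kl was higher in the CPu by 0.82 in naive and by 0.64 in MPTP-exposed mice, and both were still called. Kl values given from here on are those of the main probe set unless the other is named.

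**Figure D2:**
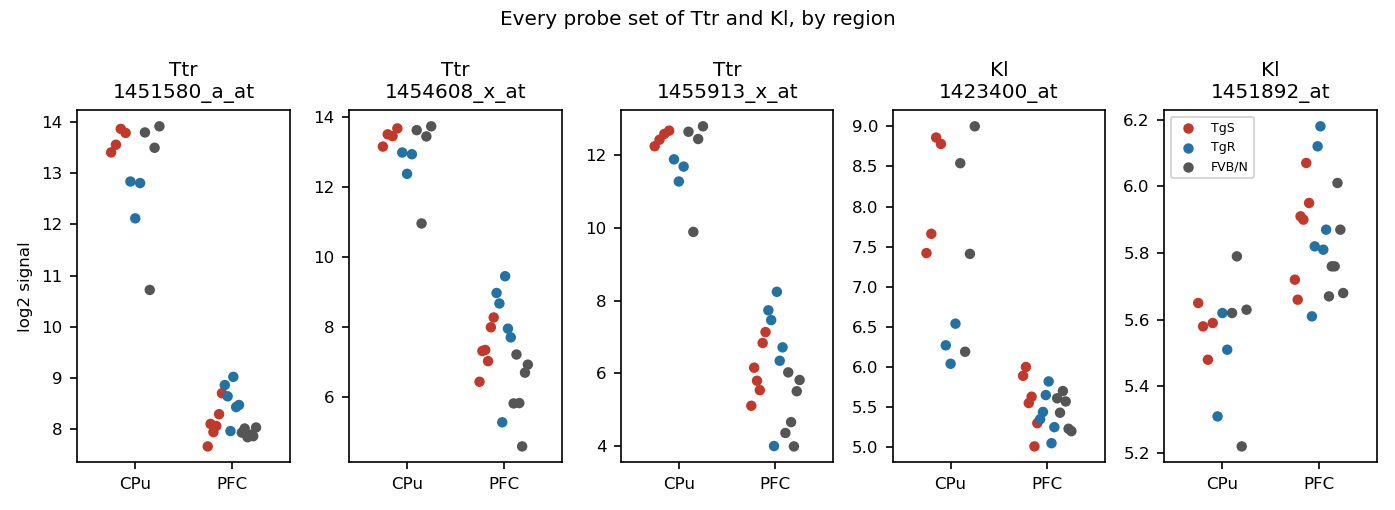
Log2 signal (y axes) of the 3 Ttr and 2 Kl probe sets in the 11 CPu and 18 PFC arrays, coloured by strain, with each point an array and the main probe set of each gene on its left. The 3 Ttr probe sets and the main Kl one are higher in the CPu, while the second Kl one runs the other way with some overlap, with CPu arrays at 5.22 to 5.79 and PFC arrays at 5.61 to 6.18.

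Within the naive CPu, Kl, Folr1 and Otx2 were called higher in TgS than TgR mice. Ttr was at 13.87 and 13.79 in TgS naive arrays, against 12.12 and 12.81 in TgR naive arrays. Kl was at 8.86 and 8.78 in TgS naive arrays, against 6.04 and 6.54 in TgR naive arrays. Folr1 was at 8.52 and 8.20 in TgS naive arrays, against 6.75 and 6.86 in TgR naive arrays. For each of these genes both TgS arrays lay above both TgR arrays. Otx2 was at 6.46 and 6.30 in TgS naive arrays, against 5.43 and 5.11 in TgR naive arrays, with no overlap either. Kl was higher in TgS by 2.53 ± 0.47 (5.78-fold; limma, adjusted p = 0.00969), Folr1 by 1.56 ± 0.32 (2.94-fold, adjusted p = 0.0181) and Otx2 by 1.11 ± 0.18 (2.16-fold, adjusted p = 0.00284). Ttr differed by 1.37 ± 0.56 (adjusted p = 0.434), which was not called, and the second Kl probe set by -0.03 ± 0.13 (adjusted p = 0.993). Thus 3 of 4 genes were called, where 0.376% of all probe sets were called higher in TgS, and without the 6 PFC arrays, which touch this comparison only through the shared estimate of spread, again 3 of 4 against 1.49%.

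The calls depended on single arrays of these small groups. Without either FVB/N MPTP CPu replicate, which enter only through the shared spread, Ttr was also called (adjusted p = 0.0175). Only Otx2 was still called without TgS naive replicate 1, without TgS naive replicate 2 or without TgR naive replicate 1, and none of the 4 without TgR naive replicate 2 (Otx2 0.95, adjusted p = 0.0716, Kl 2.78, adjusted p = 0.0547). With the CPu arrays fitted alone, Otx2 was the 1 gene called, and the Kl difference had an adjusted p of 0.0969. The 95% interval of the difference in the main model ran from 1.54 to 3.52 for Kl, from 0.90 to 2.21 for Folr1, from 0.74 to 1.48 for Otx2 and from 0.19 to 2.54 for Ttr.

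FVB/N mice lay between the transgenic lines in the naive CPu for Kl, Folr1 and Otx2, with wide replicate gaps. Kl was at 7.41 and 9.0, Folr1 at 7.37 and 8.52, Otx2 at 5.61 and 6.04 and Ttr at 13.50 and 13.92 in FVB/N naive replicates 1 and 2. Both TgR naive arrays lay below both FVB/N naive arrays for all 4 genes. The differences of TgR minus FVB/N were -1.92 ± 0.47 for Kl, -1.25 ± 0.56 for Ttr, -1.14 ± 0.32 for Folr1 and -0.56 ± 0.18 for Otx2. None of the 4 was called by limma (adjusted p at least 0.337), 4 of 4 had an unadjusted p under 0.05, and 0% of all probe sets were called in this comparison. Kl was called without either FVB/N MPTP CPu replicate (adjusted p = 0.0291). Without FVB/N naive replicate 2 the differences were -1.12 for Kl, -1.04 for Ttr, -0.57 for Folr1 and -0.34 for Otx2, with none called.

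No gene was called between TgS and FVB/N mice in the naive CPu. Otx2 differed by 0.56 ± 0.18 (TgS minus FVB/N; limma, adjusted p = 0.121), with both TgS arrays above both FVB/N arrays. The arrays of Kl, Folr1 and Ttr overlapped, and the 95% interval of the difference ran from -0.38 to 1.61 for Kl, from -0.24 to 1.07 for Folr1 and from -1.05 to 1.29 for Ttr. None of the 4 genes was called and 1 of 4 had an unadjusted p under 0.05, where 2.19% of all probe sets were called. Without FVB/N naive replicate 2 the differences were 1.41 for Kl, 0.99 for Folr1, 0.77 for Otx2 and 0.33 for Ttr, again with none called.

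**Figure D3:**
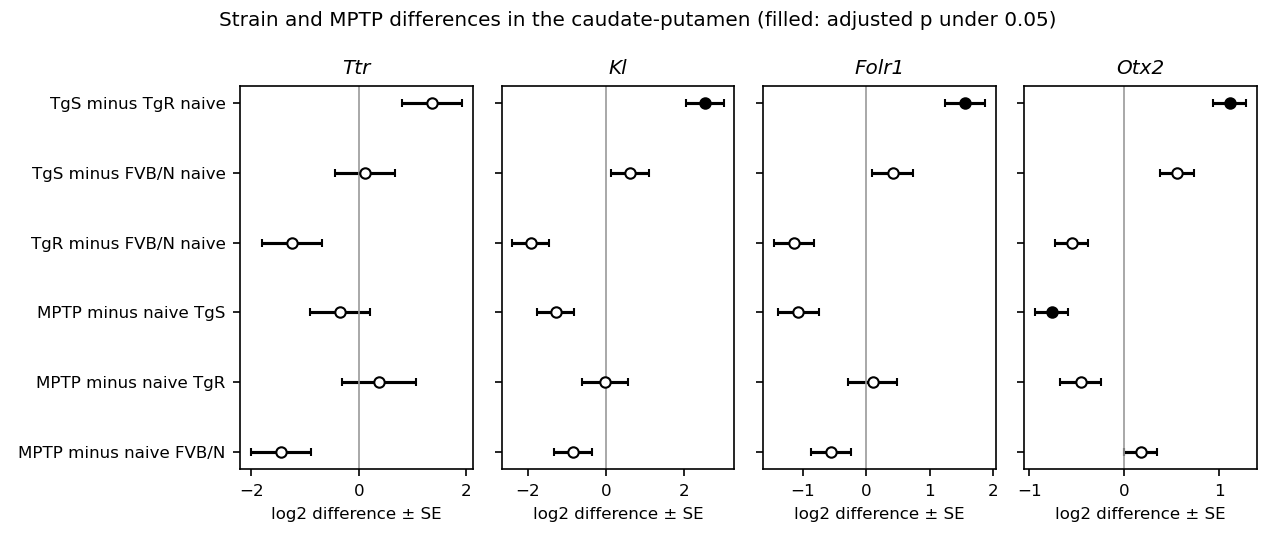
Log2 differences (x axes, points) with their standard errors (bars) in the CPu for 6 comparisons (rows). Filled points were called at an adjusted p under 0.05: Kl at 2.53, Folr1 at 1.56 and Otx2 at 1.11 between naive TgS and TgR mice, and Otx2 at -0.77 between MPTP-exposed and naive TgS mice.

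In MPTP-exposed CPu the strains were compared with 2 TgS arrays, 1 TgR array and 2 FVB/N arrays. Kl was at 7.42 and 7.66 in TgS MPTP arrays and at 6.27 in the TgR MPTP array, against 8.54 and 6.19 in FVB/N MPTP arrays. Otx2 was at 5.59 and 5.64 in TgS MPTP arrays and at 4.81 in the TgR MPTP array, against 6.29 and 5.70 in FVB/N MPTP arrays. The FVB/N replicates straddled the transgenic arrays for Kl and lay above them for Otx2. Otx2 was lower in TgR than in FVB/N by 1.19 ± 0.22 (log2 difference -1.19; limma, adjusted p = 0.0081), the 1 gene of 4 called, where 0.667% of all probe sets were called lower. This sets 1 TgR array against 2 FVB/N arrays and assumes that the lone array varies like the other groups. The difference was not called without FVB/N MPTP replicate 1 (-0.89, adjusted p = 0.0809). Without FVB/N MPTP replicate 1, Ttr was called higher in TgS than in FVB/N (2.77), with 1 FVB/N array left. TgR minus FVB/N is then 1 array against 1, with a spread taken wholly from other groups, and the values were 2.12 for Ttr without replicate 1 and -2.27 for Kl without replicate 2. Between TgS and TgR after MPTP, Otx2 differed by 0.81 ± 0.22 (limma, adjusted p = 0.0834) and Kl by 1.27 ± 0.58 (adjusted p = 0.46), 0 of 4 called, 2 of 4 with an unadjusted p under 0.05, and 1.07% of all probe sets called. Without the 6 PFC arrays the adjusted p of Otx2 was 0.0497. Between TgS and FVB/N after MPTP limma called 0 of 4 genes, 2 of 4 had an unadjusted p under 0.05, and 0.694% of all probe sets were called.

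The FVB/N MPTP replicates lay farther apart than those of any other CPu group for each of the 4 genes. Replicate 1 exceeded replicate 2 by 3.08 log2 units for Ttr (8.46-fold), by 2.35 for Kl (5.10-fold), by 1.43 for Folr1 (2.69-fold) and by 0.59 for Otx2 (1.51-fold). FVB/N naive replicates differed by 1.59 for Kl and 1.15 for Folr1, while TgS and TgR replicates of 1 treatment differed by at most 0.69 for any of the 4 genes. Replicate 1 of FVB/N MPTP also had the higher mean of the other choroid plexus genes listed, 7.36 against 6.90 in replicate 2.

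After MPTP, Otx2 was the 1 gene of 4 called in the TgS CPu. Ttr was at 13.41 and 13.56 in TgS MPTP arrays, against 13.87 and 13.79 in TgS naive arrays. Kl was at 7.42 and 7.66 in TgS MPTP arrays, against 8.86 and 8.78 in TgS naive arrays. Folr1 was at 7.21 and 7.38 in TgS MPTP arrays, against 8.52 and 8.20 in TgS naive arrays. Together with Otx2, all 4 genes had both MPTP arrays below both naive arrays in this strain. Otx2 fell by 0.77 ± 0.18 on the log2 scale (limma, adjusted p = 0.0309), to 5.59 and 5.64 in TgS MPTP arrays, against 6.46 and 6.30 in TgS naive arrays. Folr1 differed by -1.07 ± 0.32 (adjusted p = 0.117), Kl by -1.28 ± 0.47 (adjusted p = 0.26) and Ttr by -0.35 ± 0.56 (adjusted p = 0.917). The 1 call of 4 stands beside 0.663% of all probe sets called lower. The Otx2 call was lost without any 1 of the 4 TgS CPu arrays (adjusted p 0.0672 to 0.261), without the array set term (0.0779), with the replicate number as a block (0.0584) and with the CPu fitted alone (0.0811). Without either FVB/N MPTP replicate, Kl (adjusted p = 0.0333) and Folr1 (adjusted p = 0.018) were called as well.

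In TgR CPu the single MPTP array had Ttr at 12.84, Kl at 6.27, Folr1 at 6.91 and Otx2 at 4.81, and only Otx2 lay below both naive arrays (-0.46 ± 0.22). In FVB/N CPu the MPTP minus naive differences were -1.45 ± 0.56 for Ttr, -0.84 ± 0.47 for Kl, -0.55 ± 0.32 for Folr1 and 0.17 ± 0.18 for Otx2, with overlapping arrays. Limma called 0 of 4 genes in TgR, where 0.11% of all probe sets were called, and 0 of 4 in FVB/N, where 0.265% were called, and 1 of 4 had an unadjusted p under 0.05 in each. The FVB/N differences turn on single arrays. Without FVB/N MPTP replicate 1 they were -2.99 for Ttr and -2.02 for Kl, with 1 MPTP array left. That array, replicate 2, was at 10.72 for Ttr and 6.19 for Kl. Replicate 1 was at 13.80 and 8.54, within the FVB/N naive values of 13.50 to 13.92 and 7.41 to 9.0. Without FVB/N naive replicate 2 the differences were -1.24, -0.05, 0.03 and 0.39 for Ttr, Kl, Folr1 and Otx2.

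Averaged over strains, MPTP minus naive CPu was -0.71 ± 0.30 for Kl, -0.50 ± 0.20 for Folr1, -0.47 ± 0.35 for Ttr and -0.35 ± 0.11 for Otx2. Limma called 0 of 4 genes (adjusted p at least 0.144), 3 of 4 had an unadjusted p under 0.05, and 1.43% of all probe sets were called in this comparison. Leaving out FVB/N MPTP replicate 1 alone gave -1.11 for Kl, -0.99 for Ttr, -0.74 for Folr1 and -0.45 for Otx2. The FVB/N MPTP mean is then replicate 2 alone, the lower of the 2 arrays for all 4 genes. Leaving out replicate 2 in its place moves each difference the other way, since replicate 1 was the higher array. Leaving out FVB/N naive replicate 2 gave -0.45, -0.40, -0.31 and -0.28 for Kl, Ttr, Folr1 and Otx2, with none called. The MPTP differences of the strains were compared directly in the CPu, and limma called 0 of 4 genes for TgS minus TgR (0.00884% of all probe sets called), for TgS minus FVB/N (0.601%) and for TgR minus FVB/N (0.181%), with 1 of 4 at an unadjusted p under 0.05 in each. Without FVB/N MPTP replicate 1, which leaves 1 FVB/N MPTP array, the Ttr difference was called for TgS minus FVB/N (2.65), and for TgR minus FVB/N, where both MPTP arms are then 1 array, it was 3.37. Without replicate 2 the Otx2 difference was called for TgS minus FVB/N (-1.23).

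None of the 4 genes was called between strains in the PFC. In naive PFC limma called 0 of 4 genes for TgS minus TgR, TgS minus FVB/N and TgR minus FVB/N, where 18.6%, 10.9% and 2.26% of all probe sets were called, and without the 6 arrays again 0 of 4 in each, where 4.79%, 3.73% and 0.0486% were called. In MPTP-exposed PFC it called 0 of 4 in the same 3 comparisons, where 1.14%, 0.362% and 0.212% of all probe sets were called. By its main probe set, none of the 4 genes had an unadjusted p under 0.05 in any of the 6. That count leaves out the other probe sets. Of all 7 with all arrays, 2 had such a p in TgS minus TgR and 2 in TgR minus FVB/N after MPTP. In naive PFC 1 had it in TgS minus FVB/N and 1 in TgR minus FVB/N. None of the 7 was called. Ttr varied most: by its main probe set, TgR MPTP arrays were at 8.86 and 8.64, against 7.93 and 8.01 in FVB/N MPTP arrays. The difference was 0.78 ± 0.56 (limma, adjusted p = 0.892) without overlap. The other Ttr probe sets lay farther apart between these groups. On one, TgR MPTP arrays were at 8.97 and 8.67, against 5.81 and 7.21 in FVB/N MPTP arrays. On the other, they were at 7.73 and 7.46, against 4.35 and 6.02. The naive PFC arrays overlapped between strains for all 4 genes. In TgR naive PFC, the second Ttr probe set was at 5.27 in replicate 1, against 9.45 in replicate 2.

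MPTP minus naive PFC differences of the 4 genes lay between -0.16 and 0.08 averaged over strains. Limma called 0 of 4, none with an unadjusted p under 0.05, where 60.9% of all probe sets were called. With the array set term, the naive side rests on replicates 1 and 2, the 6 arrays that stand apart by Xist and Eif2s3y. The shares of all probe sets called cannot separate MPTP from that split, so they are not the MPTP response alone. Without the 6 arrays, the naive side is an array set that holds no MPTP array. The same limits hold for the MPTP difference in CPu minus that in PFC. By strain limma called 0 of 4 in FVB/N (25.5% of all probe sets called), 0 of 4 in TgS (40.6%) and 0 of 4 in TgR (43.7%), with 1 of 4 at an unadjusted p under 0.05 in TgR and none in the others. Without the 6 arrays it also called 0 of 4, none with an unadjusted p under 0.05, over all strains (50.5% of all probe sets called), in FVB/N (18.9%), in TgS (37.1%) and in TgR (22.5%), and the Kl difference over all strains was 0.45 ± 0.30 (adjusted p = 0.225). Fitted on PFC arrays alone, Folr1 was called over all strains (-0.16, adjusted p = 0.0458), Kl (0.33) and Folr1 (-0.31) in TgS, Kl (-0.29) and Otx2 (-0.34) in TgR, and Kl between TgS and TgR after MPTP (0.55). Otx2 in TgR PFC was also called without TgR MPTP PFC replicate 2 (-0.54, adjusted p = 0.045). The second Kl probe set fell by 0.27 ± 0.07 after MPTP in the PFC (adjusted p = 0.00422), and by 0.17 without the 6 arrays (adjusted p = 0.0416), while the main one differed by -0.03 ± 0.27. The MPTP difference in CPu minus that in PFC was not called for any of the 4 genes by limma, none had an unadjusted p under 0.05, and 43.3% of all probe sets were called. Without the 6 arrays none was called either, 2 of 4 had an unadjusted p under 0.05, 32.5% of all probe sets were called, and the Kl value was -1.16 ± 0.44 (adjusted p = 0.0524), against -0.68 ± 0.40 with them. Leaving out FVB/N MPTP CPu replicate 1 made it called for Ttr (-1.07), Kl (-1.07) and Folr1 (-0.58), and leaving out FVB/N naive CPu replicate 1 made it called for Kl (-0.95).

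The naive TgS minus TgR difference was larger in the CPu than in the PFC for Otx2, by 1.27 ± 0.22 (limma, adjusted p = 0.0139). The same quantity was 2.60 ± 0.58 for Kl (adjusted p = 0.0821), 1.49 ± 0.39 for Folr1 (adjusted p = 0.155) and 1.59 ± 0.69 for Ttr (adjusted p = 0.439), so that 1 of 4 genes was called where 0.155% of all probe sets were called higher. Without the 6 arrays Otx2 was again the 1 called, at 1.26 ± 0.25 (adjusted p = 0.0371), against 0.415% of all probe sets. The Otx2 call was lost without TgS naive CPu replicate 2 (1.35, adjusted p = 0.139), without TgR naive CPu replicate 2 (1.11, adjusted p = 0.142) and without the array set term (adjusted p = 0.0542). Without FVB/N MPTP CPu replicate 1 or 2, Kl (adjusted p = 0.00641) and Folr1 (adjusted p = 0.0204) were called too, and without either FVB/N naive CPu array Kl was called (adjusted p = 0.0424).

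Across the 11 CPu arrays the members moved together. Kl and Folr1 had a Pearson correlation of 0.979, Kl and Otx2 of 0.848, Folr1 and Otx2 of 0.839, Ttr and Kl of 0.811 and Ttr and Folr1 of 0.775, while Ttr and Otx2 had one of 0.452. The rank correlation of Ttr with Kl was 0.964 and with Folr1 0.989. These are descriptions over 11 arrays that share tissue, groups and normalization. In the 18 PFC arrays, Kl and Folr1 correlated at -0.457 and Ttr and Kl at -0.253.

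The genes whose CPu pattern was most like the mean of the members' standardised signals, among 12389 others, were Ecrg4 (r = 0.990), F5 (0.976), Kcne2 (0.947), Aqp1 (0.941), Tjp3 (0.912), Sostdc1 (0.905), Igfbp2 (0.898), Slc4a5 (0.897), Cab39l (0.897) and Pdgfd (0.883). Ecrg4 encodes the precursor of a secreted peptide, F5 coagulation factor V, Kcne2 a potassium channel subunit, Aqp1 a water channel, Slc4a5 a sodium bicarbonate transporter and Tjp3 a tight junction protein. Of these 10 genes, 8 are in the list of 32 other choroid plexus genes measured. Ecrg4 was at 8.93 and 8.88 in TgS naive arrays, against 6.60 and 6.66 in TgR naive arrays, and at 8.35 and 6.11 in FVB/N MPTP arrays, against 7.54 and 8.54 in FVB/N naive arrays. The 4 arrays highest for Kl were also the 4 highest for Ecrg4, and the 4 lowest were the same too. Over all 29 arrays, which add the regional difference, r was 0.956 for Ecrg4, 0.965 for F5 and 0.966 for Sostdc1, but 0.299 for Aqp1 and -0.395 for Igfbp2. Nearest to Ttr alone were Tspyl1 (0.874), Sobp (0.847) and Ecrg4 (0.839). Ecrg4, F5 and Kcne2 were nearest to Kl (0.979, 0.974 and 0.947), F5, Kcne2 and Aqp1 to Folr1 (0.982, 0.980 and 0.964), and Mia, Lbp and Pcsk1 to Otx2 (0.931, 0.913 and 0.912).

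**Figure D4:**
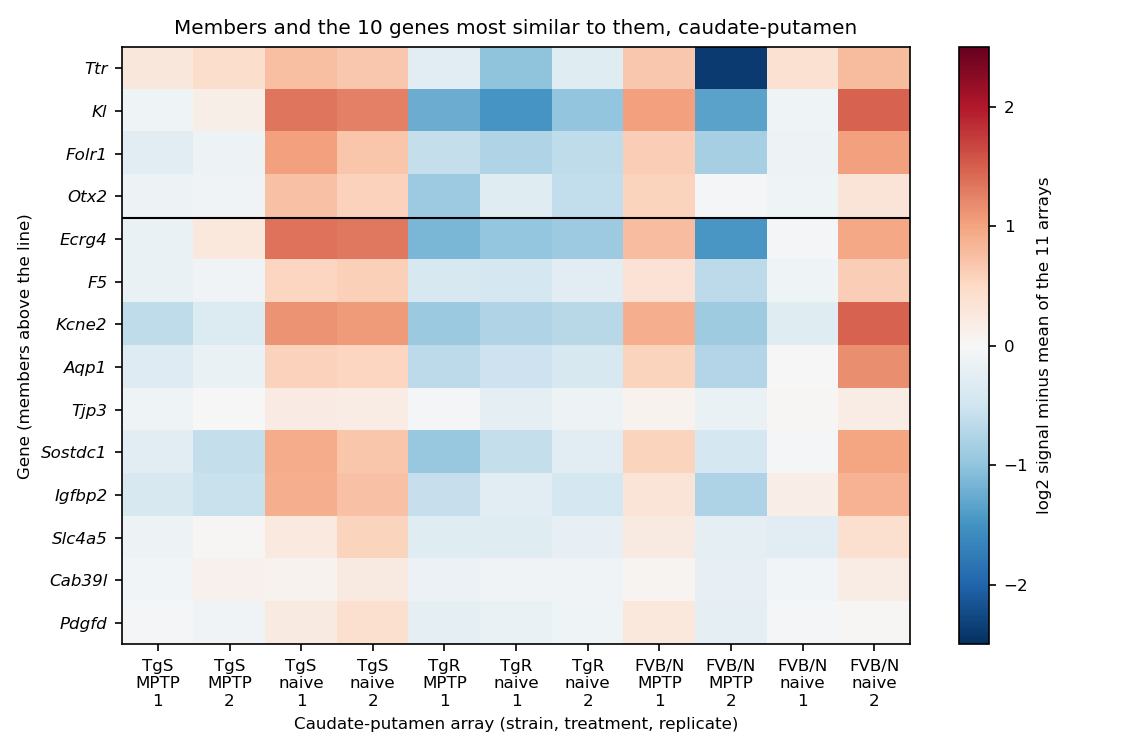
Log2 signal minus the mean of the 11 CPu arrays (colour) for the 4 members, above the line, and the 10 genes most similar to their mean, below it, in each CPu array (columns). TgS naive arrays, FVB/N naive replicate 2 and FVB/N MPTP replicate 1 are high, and TgR arrays and FVB/N MPTP replicate 2 are low, with Ttr in the last at 10.72.

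The list of other choroid plexus genes followed the members in part. In naive CPu minus PFC, 15 of 32 were called higher and 6 lower (20 and 1 without the 6 arrays), with a median of 0.11 (0.25 without them), against a median of -0.06 over all probe sets. Of all probe sets 25.2% were called higher and 34.9% lower (29.4% and 23.8% without the 6 arrays). Calml4 (2.20 ± 0.14), Sostdc1 (1.91 ± 0.18), Lbp (1.19 ± 0.16) and Col9a3 (0.63 ± 0.08) were among those higher in the CPu. Between naive TgS and TgR CPu, 4 of 32 were called higher and none lower: Calml4 by 1.46 ± 0.24, Ecrg4 by 2.28 ± 0.41, Igfbp2 by 1.18 ± 0.25 and Kcne2 by 1.82 ± 0.42 (7 higher without the 6 arrays). The median was 0.27, with 29 of 32 above 0, where the median of all probe sets was -0.02 and 0.376% of them were called higher (1.49% without the 6 arrays). After MPTP in the CPu, Igfbp2 was the 1 of 32 called, lower by 0.75 ± 0.15 (limma, adjusted p = 0.0147), and the median was -0.14 against 0.01 over all probe sets, of which 0.544% were called lower. In TgS mice alone, 2 of 32 were called lower after MPTP, with a median of -0.31, where 0.663% of all probe sets were called lower.

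Some genes of neighbouring tissue also differed between naive TgS and TgR CPu, where 0.376% of all probe sets were called higher. Over the 11 CPu arrays the correlation of a list's mean with the members' mean was 0.557 for thalamus and septum, 0.504 for ependyma, 0.414 for meninges and fibroblasts, -0.384 for striatal and -0.178 for cortical neurons, and 0.942 for the other choroid plexus genes. Of 11 thalamus and septum genes, 3 were called higher in naive TgS than TgR CPu, namely Slc17a6 (1.32 ± 0.21), a vesicular glutamate transporter, Gbx2 (0.64 ± 0.14) and Tcf7l2 (0.44 ± 0.09), both transcription factors, and the list's mean level was 7.87 and 8.06 in TgS naive arrays, against 7.47 and 7.39 in TgR naive arrays. Of 6 ependyma genes, which line the ventricle, 1 was called higher (Rsph1, 0.67 ± 0.15), with means of 7.01 and 6.93 in TgS naive arrays, against 6.84 and 6.47 in TgR naive arrays. Of 15 genes of meninges and fibroblasts, 1 was called higher (Igf2, 0.99 ± 0.20), with means of 7.44 and 7.60 in TgS naive arrays, against 7.25 and 7.33 in TgR naive arrays. After MPTP, 6 of 15 meningeal genes were called lower in the CPu, Ogn by 1.02 ± 0.16 and Igf2 by 0.69 ± 0.12 among them, and Slc17a6 was lower by 0.97 ± 0.13 (limma, adjusted p = 0.000539). In that comparison 0.544% of all probe sets were called lower. The list means of meningeal genes were 6.77 to 6.81 in TgS MPTP arrays, against 7.44 to 7.60 in TgS naive arrays, a gap without overlap. The single TgR MPTP array was at 6.91, below the TgR naive arrays at 7.25 to 7.33. FVB/N MPTP arrays, at 7.14 to 7.17, lay within the FVB/N naive arrays at 7.08 to 7.39. The striatal list lay at 11.39 to 11.78 over the 11 CPu arrays, with 0 of 8 called between naive TgS and TgR. Its mean was highest in the TgR arrays, at 11.665 to 11.776 naive and 11.705 after MPTP. The highest other CPu array, an FVB/N naive one, was at 11.604. Without the 6 PFC arrays Foxp1 was called lower in naive TgS than TgR CPu (-0.44, limma, adjusted p = 0.0458). The mean of the 8 cortical pyramidal genes was 7.38 and 7.41 in TgS naive and 7.76 and 7.77 in TgR naive CPu, against 8.24 and 7.93 in FVB/N naive CPu, and it was 8.01 and 8.11 in TgS MPTP CPu. Between naive TgS and TgR CPu 0 of the 8 were called, and between naive TgS and FVB/N CPu 3 were lower, namely the transcription factors Neurod6 (-2.62 ± 0.39), Tbr1 (-1.47 ± 0.22) and Fezf2 (-0.91 ± 0.19). In the latter comparison 0.871% of all probe sets were called lower. These cortical markers thus differed between arrays that the strain comparisons use. The part of these tissues in the members' differences was not tested.

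**Figure D5:**
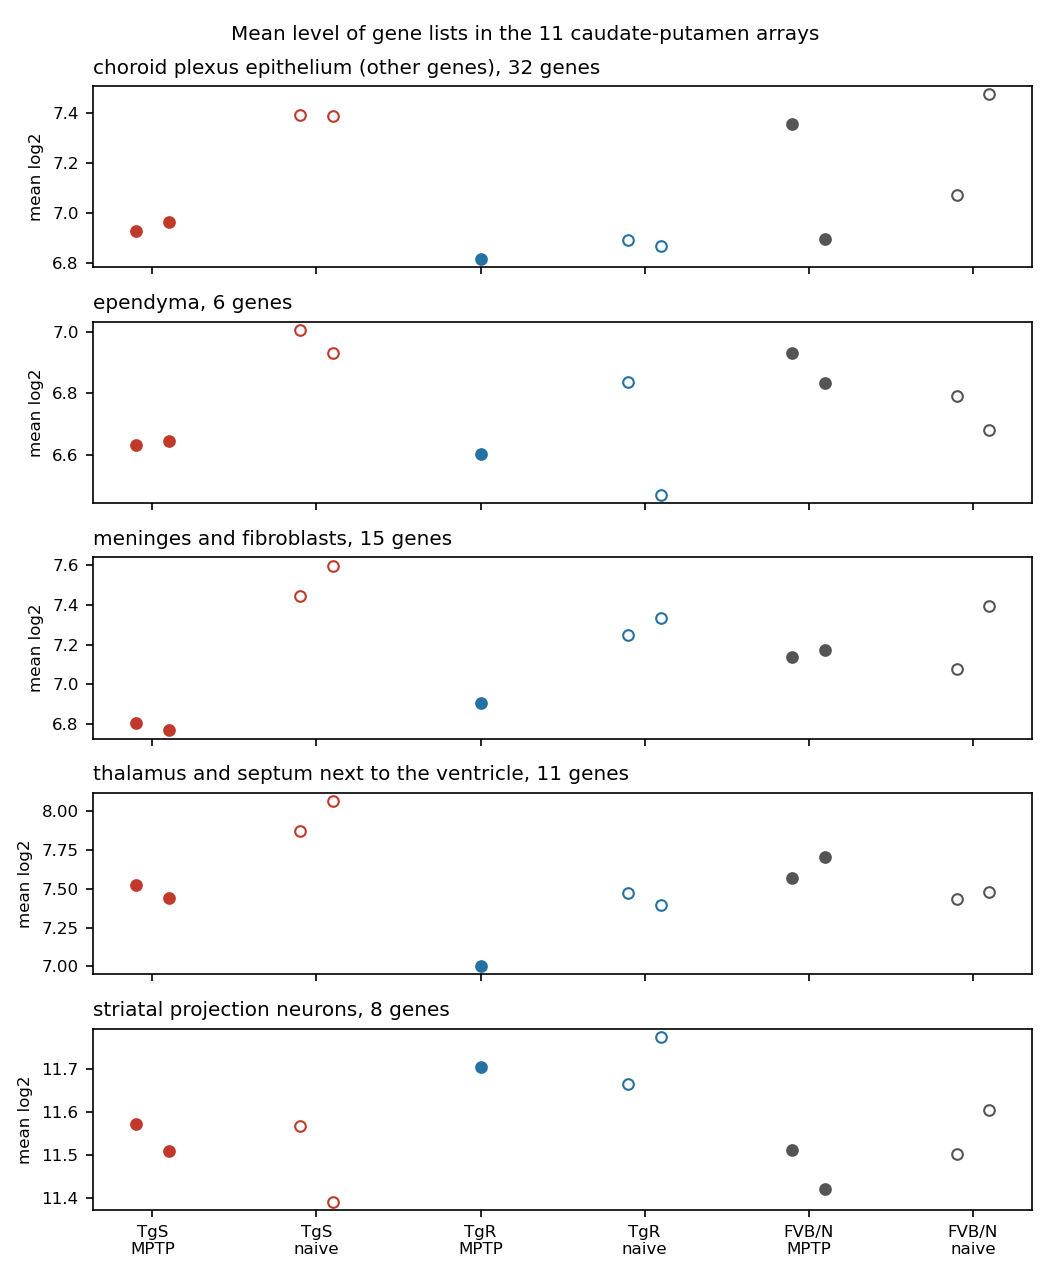
Mean log2 signal (y axes) of 5 gene lists in each of the 11 CPu arrays (points), by strain and treatment (x axis). The other choroid plexus genes, ependyma, meninges and thalamus and septum lists are at their highest or near it in TgS naive arrays, at 7.87 and 8.06 for the thalamus and septum list.

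Among the partners of Ttr, Rbp4, the plasma retinol carrier that binds transthyretin, and Crym, an intracellular thyroid hormone binder, took another course than Ttr. In naive CPu Crym was lower in TgS than TgR by 0.86 ± 0.15 (limma, adjusted p = 0.00603), the 1 of 6 called, and Rbp4 differed by -0.47 ± 0.11 (adjusted p = 0.0523). Of all probe sets 0.398% were called lower there. Rbp4 rose by 0.43 ± 0.07 after MPTP in the CPu (limma, adjusted p = 0.00258), the 1 of 6 called, where 0.884% of all probe sets were called higher. The list's mean level correlated with the members' mean at -0.625 over the 11 CPu arrays. For the genes related to klotho, none of 6 (the FGF receptors Fgfr1 to Fgfr4, the ligand Fgf23 and beta-klotho, Klb) was called between naive TgS and TgR CPu or after MPTP in the CPu. In naive CPu minus PFC, Fgfr1, the main partner of klotho, was higher by 0.32 ± 0.12 and Fgfr4 lower by 0.16 ± 0.05. Of 7 other folate genes, 2 were called higher in naive CPu, a share near the 25.2% of all probe sets, Ggh (0.40 ± 0.07), a hydrolase of folate polyglutamates, and Mthfd1 (0.26 ± 0.04), a folate-interconverting enzyme, and Folr2, a second folate receptor, was lower by 0.17 ± 0.06 (0.06 higher without the 6 arrays, not called). None of the 7 was called between naive TgS and TgR CPu or after MPTP in the CPu.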

How the data were processed

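Expression was measured in 29 Affymetrix arrays of biotin-labelled RNA. The deposited values are log2 signals per probe set, deposited as the authors made them. RMA, Affymetrix Expression Console and Affymetrix Power Tools are named, without versions, per the submitters' processing notes. Whether 1 run normalized all arrays is not given in the sources used here. Of 22690 probe sets, 64 controls were left out. The platform annotation gives 1 symbol for 20380 of the rest, several for 691 and none for 1555 (12393 genes).

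The values were used as deposited with no filter. Limma 3.58.1 (R 4.3.3) fitted 12 group means and a term for naive PFC replicates 3 and 4, whose source labels spell the region differently (16 residual degrees of freedom, 11 without the 6 arrays that stand apart). Group means and model differences can therefore differ. Without the 6 arrays the term drops out, since all naive PFC arrays left are replicates 3 and 4. The single TgR MPTP CPu array is assumed to vary like the rest. P-values were two-sided and adjusted by Benjamini-Hochberg over 22626 probe sets within each of 35 comparisons, and called means an adjusted p under 0.05. Errors after ± are standard errors. The number of arrays limits the precision. Replicate pairs shared 0.999% to 4.2% of identical values, so none was a duplicate. The fit was tested on simulated data. Figures were drawn with matplotlib 3.10.9.

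Named were all members, the 10 genes most correlated with the members' mean over the CPu arrays and 3 per member, and up to 4 genes per list with the smallest p. The members and gene lists were chosen with earlier results of these data known. Model residuals of same-numbered replicates of different strains correlated between -0.67 and 0.203 in naive PFC and between -0.35 and 0.154 elsewhere. The array set term and the small groups constrain these values, and CPu arrays were not set against PFC arrays. They cannot decide whether the numbers pair the samples, and the main fit used no pairing. Alternatives were no array set term, the replicate block, 1 region fitted alone, quantile normalization, trended and robust variance, averaging a gene's probe sets, leaving out probe sets under the 0.25 quantile of mean signal, the 6 arrays, each array in turn and, chosen after seeing the data, both FVB/N MPTP CPu arrays.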

Additional observations from a re-analysis of the deposited data

Results flagged for a closer look

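For Otx2, the naive TgS minus TgR difference was larger in the CPu than in the PFC by 1.27 on the log2 scale, and the test of that difference had an adjusted p of 0.0139 (limma). For the second Kl probe set, the MPTP minus naive difference in the CPu exceeded that in the PFC by 0.31 on the log2 scale (limma, adjusted p = 0.0304), and by 0.20 with an adjusted p of 0.118 without the 6 naive PFC arrays that stand apart. In the 21 sets of 4 naive PFC arrays examined (7 probe sets in 3 strains), no array passed Dixon's 95% criterion, which sets the gap to the nearest array against the whole range. A wide spread without 1 lone array does not meet it: the second Ttr probe set was at 5.27, 9.45, 7.95 and 7.70 in TgR naive PFC.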

How the results depend on the processing

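No difference of the members that was called in the main model changed its sign under an alternative. Differences called only when an array was left out are not covered by this statement. The counts of 4 of 4 genes higher in the CPu, naive and after MPTP, stayed at 4 under every alternative run, and the count of 0 for TgS minus FVB/N in naive CPu stayed at 0. For naive TgS minus TgR in the CPu the count was 3, 1 with the CPu fitted alone, and 0 to 4 when each array was left out. For TgR minus FVB/N in naive CPu it was 0, 1 without both FVB/N MPTP CPu arrays, and 0 to 1 when each array was left out. For MPTP minus naive CPu it was 0, and 0 to 4 when each array was left out. For MPTP minus naive PFC it was 0, and 1 with the PFC fitted alone. The replicate block left these counts at 4, 4, 3, 0, 0, 0 and 0, and of the results of the 4 genes it ended the Otx2 call in TgS after MPTP (adjusted p = 0.0584). Over all 22626 probe sets, the number called between naive TgS and TgR CPu was 175, with 76 when the array set term was dropped and 664 without the 6 arrays, and for MPTP minus naive CPu it was 323, with 98 and 1028. For TgS minus FVB/N in naive CPu it was 495, with 161 and 2092, and for MPTP minus naive PFC 13770, with 8645 and 11428. The causes of these changes were not tested.

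Every CPu group had 1 or 2 arrays, so that 1 array can decide a difference between them. Detection calls were not used here, so how far the PFC signals lie above background is unknown.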

Other observations

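Enpp2 was not analysed, but genes that act on its product were measured. Of 7 genes of lysophosphatidic acid signalling, 4 were called higher in naive CPu than in naive PFC: the phosphatases Plpp3 (0.34 ± 0.06 on the log2 scale), Plpp2 (0.29 ± 0.06) and Plpp1 (0.23 ± 0.07) and the receptor Lpar1 (0.51 ± 0.19). Of all probe sets 25.2% were called higher in this comparison. Without the 6 PFC arrays that stand apart, 5 of the 7 were higher against 29.4%, with Lpar1 at 0.98. Between naive TgS and TgR CPu none of the 7 was called by limma, and Lpar1 differed by 0.49 ± 0.34 (adjusted p = 0.811). After MPTP in the CPu none was called either, with Lpar1 at -0.24 ± 0.21. All 12 measured myelin genes were called higher in naive CPu (median 1.25), against 25.2% of all probe sets, and 0 of 12 were called between naive TgS and TgR CPu (median 0.17).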
